A study of Mus musculus with 16 samples.

Results

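The genes described here are the myeloid C-type lectin receptors Clec4a1, Clec4a2, Clec4a3, Clec4b1, Clec4d, Clec4e, Clec4n, Clec5a, Clec7a and Clec12a, chosen by name from a list of 10. Of these, 9 were matched among the 31053 genes of the count matrices, and Clec7a was not analysed here. RNA was counted in droplets of sorted live CD45+ cells from subcutaneous flank tumors of C57BL/6J mice, in 16 libraries. MC38, a colorectal carcinoma line, and Panc02-SIY, a pancreatic adenocarcinoma line that carries the model antigen SIY, were each left untreated or given a single dose of 12 Gy of image-guided radiation, and tumors were taken 24 h later, with 4 libraries in each of the 4 groups. The labels name no engineered allele, each tumor model is 1 cell line, and the labels give no age.

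C-type lectin receptors are surface proteins of myeloid cells that bind sugars, lipids and material from dying cells. Most activating members pair with an adaptor such as FcRγ (Fcer1g) or DAP12 (Tyrobp) and signal through the kinase Syk and the scaffold protein Card9 to cytokine genes. Inhibitory members carry an ITIM motif in their own tail that recruits the phosphatases Ptpn6 and Ptpn11. Of the members measured, Clec4a2 encodes the inhibitory receptor DCIR1, Clec12a encodes an inhibitory receptor that senses uric acid crystals, and Clec4a1 and Clec4a3 encode relatives of DCIR1. Clec4b1 encodes the activating receptor DCAR. Clec4d (MCL), Clec4e (Mincle) and Clec4n (Dectin-2) encode FcRγ-linked receptors for microbial glycolipids and mannans, and Clec5a (MDL-1) pairs with DAP12.

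The members lie together on chromosome 6 of the mouse. In the GENCODE annotation of GRCm38, Clec4a1 (122921848 to 122934619), Clec4a3 (122952515 to 122969875), Clec4b1 (123049962 to 123071555), Clec4a2 (123106428 to 123143999), Clec4n (123229843 to 123247021) and Clec4d (123262111 to 123275265) run on the plus strand. Clec4e follows on the minus strand at 123281789 to 123289870. Clec5a lies apart from that cluster, on the minus strand at 40574894 to 40585821, and Clec12a on the plus strand at 129342691 to 129365303. The Clec4a genes and Clec4b1 have close relatives beside them, so a read could match several neighbours, and their separate values are uncertain to that extent.

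Promoter windows from RefSeq (GRCm38.p6, 250 bases before the start of transcription and 50 from it on) were matched for 8 of the 9 members measured, with none for Clec4n. The windows printed here belong to the pair highest in macrophage-like cells of Panc02-SIY tumors (Clec4a1 and Clec4a3), to neighbours on the chromosome that were both highest in neutrophil-like cells (Clec4d and Clec4e) and to Clec5a, which was higher in macrophage-like cells of MC38 than of Panc02-SIY tumors. Capitals mark matches to motifs searched on both strands: GAGGAAG, core letters bound by the myeloid factor PU.1, and TTGCNNAA, letters bound by C/EBP factors.
Clec4a1, chr6:122921598-122921897, plus strand: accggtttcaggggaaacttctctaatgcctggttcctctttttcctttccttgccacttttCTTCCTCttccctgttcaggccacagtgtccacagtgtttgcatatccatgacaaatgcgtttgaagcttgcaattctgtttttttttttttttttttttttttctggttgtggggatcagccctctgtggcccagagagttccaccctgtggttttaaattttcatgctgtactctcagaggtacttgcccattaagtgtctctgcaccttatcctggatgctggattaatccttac
Clec4a3, chr6:122952265-122952564, plus strand: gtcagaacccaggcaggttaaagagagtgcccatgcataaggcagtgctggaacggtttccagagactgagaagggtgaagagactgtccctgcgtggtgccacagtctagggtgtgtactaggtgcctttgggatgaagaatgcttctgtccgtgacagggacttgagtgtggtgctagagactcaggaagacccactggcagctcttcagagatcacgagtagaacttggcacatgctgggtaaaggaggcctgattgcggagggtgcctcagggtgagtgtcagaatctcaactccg
Clec4d, chr6:123261857-123262156, plus strand: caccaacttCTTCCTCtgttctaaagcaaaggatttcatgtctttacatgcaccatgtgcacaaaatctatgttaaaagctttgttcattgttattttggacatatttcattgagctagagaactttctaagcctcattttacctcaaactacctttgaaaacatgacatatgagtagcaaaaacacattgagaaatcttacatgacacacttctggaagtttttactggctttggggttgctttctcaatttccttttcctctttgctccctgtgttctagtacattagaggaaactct
Clec4e, chr6:123289822-123290121, minus strand: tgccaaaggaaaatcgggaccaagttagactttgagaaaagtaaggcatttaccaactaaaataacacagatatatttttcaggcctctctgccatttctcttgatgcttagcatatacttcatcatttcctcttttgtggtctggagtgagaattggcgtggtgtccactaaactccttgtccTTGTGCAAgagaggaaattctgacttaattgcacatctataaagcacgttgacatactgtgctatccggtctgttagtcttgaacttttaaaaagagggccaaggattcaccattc
Clec5a, chr6:40585756-40586055, minus strand: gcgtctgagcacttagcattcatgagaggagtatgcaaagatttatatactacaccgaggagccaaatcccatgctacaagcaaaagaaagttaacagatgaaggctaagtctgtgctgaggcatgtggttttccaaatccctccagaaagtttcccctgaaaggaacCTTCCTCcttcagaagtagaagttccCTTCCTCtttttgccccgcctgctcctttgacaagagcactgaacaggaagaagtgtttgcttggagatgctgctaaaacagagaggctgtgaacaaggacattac
Matches were counted by member, and Clec4a3 had another window, from 122952394, that is not printed here. The PU.1 letters were found for 4 of the 8 members (Clec4a1, Clec4d, Clec5a with a pair of matches, and Clec12a), against 13.4% of all 32544 RefSeq promoter windows of this length. The C/EBP letters were found in the windows of Clec4e and Clec12a, against 10.8% of all windows. The letters TGANTCA, searched for AP-1, were found in those of Clec4a2 (as TGACTCA) and Clec12a (as TGAATCA), against 7.79%. None of these letters stood in the windows of Clec4a3 and Clec4b1.

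Libraries of the same tumor line shared cell barcodes. In MC38, the 9843 barcodes called over 8 libraries were only 2632 different sequences, 769 of them present in all 8 libraries, and a median pair of libraries shared 964.5 barcodes, or 83.3% of the smaller library. In Panc02-SIY, 18835 called barcodes were 18136 different sequences, and a median pair shared 5.54% of the smaller library. Each barcode was therefore kept only in the library of its tumor line where it had the most UMIs (molecules counted by their unique tags), which left 20768 of 28678 barcodes and 1385711 to 43708746 UMIs in a library. Irradiated MC38 replicate 1 kept 147 barcodes and lost 57.2% of its UMIs by this rule. Of those barcodes, 59 had most of their UMIs spread over other MC38 libraries, so their library of origin, and with it their treatment, is uncertain. Line comparisons in macrophage-like, monocyte-like, dendritic-like and all CD45+ barcodes are also given with every called barcode kept, while fits within single clusters and on listed genes used each barcode once. With every called barcode kept, the same barcode entered several MC38 libraries, untreated and irradiated. Those libraries were then not independent, so SEs and p-values may be too small and radiation responses in MC38 understated. The tumor lines differed in barcode sharing in all their libraries, so line and library handling cannot be told apart.

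Barcodes were clustered without the members and named from marker genes, and a class is called macrophage-like, monocyte-like, neutrophil-like or dendritic-like. The 10 macrophage markers summed to between 14594 and 27279 CPM, the UMIs of a gene per 1e6 UMIs of the class, in the macrophage-like barcodes of a library. In Panc02-SIY, 8 monocyte markers summed to 5446 to 9396 CPM in monocyte-like barcodes, 9 neutrophil markers to 34538 to 51701 CPM in neutrophil-like barcodes, and 12 dendritic markers to 4088 to 6107 CPM in dendritic-like barcodes. Macrophage-like barcodes made up 58.7% to 70.5% of a library in untreated MC38 and 9.97% to 29.9% in untreated Panc02-SIY. MC38 libraries held only 1 to 11 monocyte-like, 0 to 8 neutrophil-like and 1 to 12 dendritic-like barcodes each. In the main clustering, with each barcode kept once, the members were therefore compared between groups there in macrophage-like barcodes alone. Sub-clusters of the dendritic clusters that raised most markers of another class had been left out of the dendritic-like class. One of them, with Ccl17 and Mgl2 among its leading genes, held 27 untreated and 31 irradiated MC38 barcodes. It raised 6 of 10 macrophage markers and 3 markers of type 2 dendritic cells.

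The first question was which myeloid class carries each receptor. By mean level over libraries, mostly of Panc02-SIY outside the macrophage-like class, the members fell into 2 sets. Clec4a1, Clec4a2, Clec4a3, Clec4b1 and Clec12a were highest in macrophage-like barcodes, and Clec4d, Clec4e, Clec4n and Clec5a in neutrophil-like barcodes. Classes were ranked by the mean of log2(CPM + 10) over libraries, and neighbours in the ranking were compared within libraries that held both, by a two-sided permutation test of signs with Benjamini-Hochberg adjustment over 36 neighbour pairs. A difference is called resolved here at an adjusted p under 0.1. Libraries were pooled over treatment and tumor line for this ranking, and MC38 entered the neutrophil-like class with 1 library of 8 barcodes.

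The 4 members highest in neutrophil-like barcodes stood clear of the next class in each of the 9 libraries with both. Mincle (Clec4e) in neutrophil-like barcodes measured 1213, 856, 840 and 947 CPM in the untreated and 1081, 1315, 1055 and 961 CPM in the irradiated Panc02-SIY libraries, against 133 to 263 CPM in monocyte-like barcodes of the same libraries. No neutrophil-like value overlapped a monocyte-like one, and the mean difference was 2.24 on the log2(CPM + 10) scale (exact permutation, adjusted p = 0.014). Its partner MCL (Clec4d) measured 734 to 1455 CPM in untreated and 763 to 1098 CPM in irradiated neutrophil-like barcodes, 3.72 log2 units above monocyte-like barcodes in those 9 libraries (exact permutation, adjusted p = 0.014). Dectin-2 (Clec4n) measured 1420 ± 339 CPM (SD, n = 4) in untreated and 1342 ± 429 CPM (SD, n = 4) in irradiated neutrophil-like barcodes of Panc02-SIY, 2.43 log2 units above macrophage-like barcodes over those 9 libraries (exact permutation, adjusted p = 0.014). MDL-1 (Clec5a) measured 263 ± 34.8 and 299 ± 48.2 CPM (SD, n = 4 each) in the same barcodes, 2.97 log2 units above macrophage-like barcodes (exact permutation, adjusted p = 0.014). Below the neutrophil-like class, Clec4e was higher in monocyte-like than in macrophage-like barcodes by 2.19 log2 units in 10 of 11 libraries (permutation, adjusted p = 0.014), whereas the order of macrophage-like and monocyte-like barcodes was not resolved for Clec4n or Clec5a (permutation, adjusted p = 0.223 and 0.503). Within the 8 Panc02-SIY libraries alone, Clec5a was higher in monocyte-like than in macrophage-like barcodes by 0.84 log2 units in 7 of 8 libraries (exact permutation, adjusted p = 0.033). The neutrophil-like lead of Clec5a over that closer class was 2.35 log2 units in 8 of 8 libraries (exact permutation, adjusted p = 0.026).

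**Figure D1:**
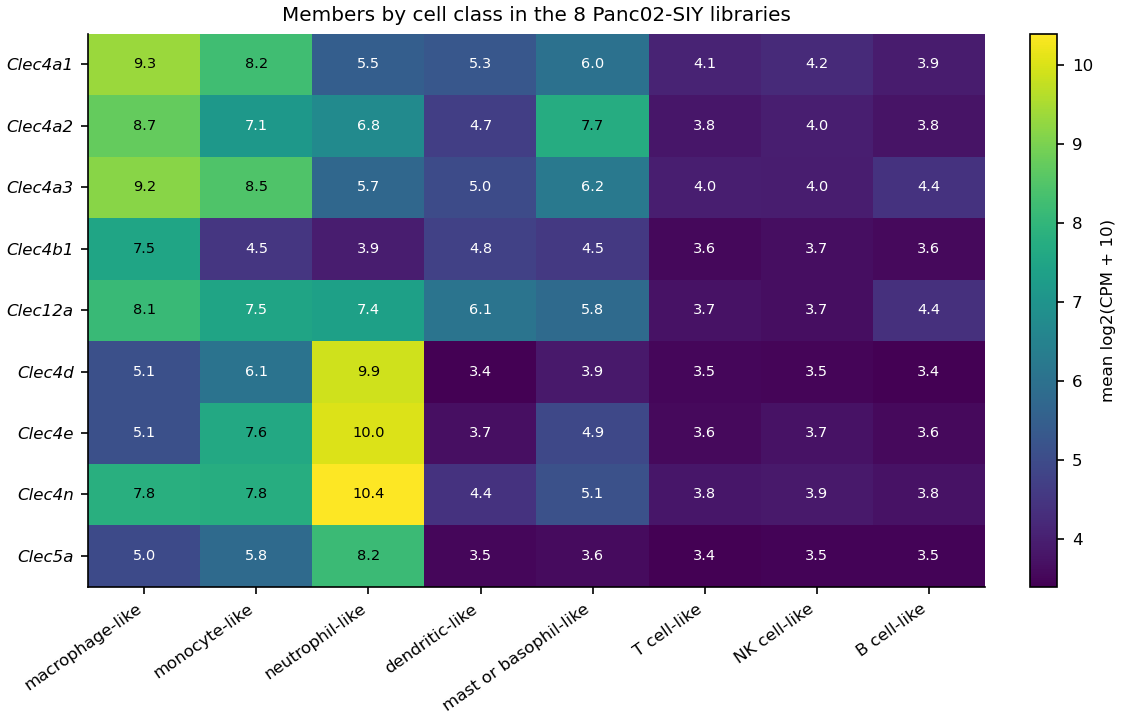
Mean level of each member as log2(CPM + 10), rows, in 8 cell classes, columns, over the Panc02-SIY libraries that hold at least 5 barcodes of the class. Clec4d, Clec4e, Clec4n and Clec5a peak in the neutrophil-like column, the other 5 members in the macrophage-like column, and the T cell-like column holds no member above 11.7 CPM in a library.

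Of the members highest in macrophage-like barcodes, DCAR (Clec4b1) had the largest gap to its next class, 2.05 log2 units above dendritic-like barcodes in 12 of 12 libraries (permutation, adjusted p = 0.014), and the order of its lower classes was resolved only between monocyte-like and neutrophil-like barcodes. DCIR1 (Clec4a2) was 1.55 log2 units above monocyte-like barcodes in 11 of 11 libraries (permutation, adjusted p = 0.014). Its monocyte-like level was above that of mast or basophil-like barcodes in only 2 of 10 libraries with both. Within the Panc02-SIY libraries mast or basophil-like barcodes came next, 1.01 log2 units below macrophage-like barcodes in 7 of 8 (exact permutation, adjusted p = 0.064). The inhibitory receptor Clec12a was 0.53 log2 units above monocyte-like barcodes in 8 of 11 libraries (permutation, adjusted p = 0.033), and its monocyte-like and neutrophil-like levels were not resolved from each other. For Clec4a1 and Clec4a3, the lead of macrophage-like over monocyte-like barcodes was 0.56 and 0.39 log2 units, in 8 of 11 libraries each. It was not resolved over all libraries (permutation, adjusted p = 0.138 and 0.137). Within the 8 Panc02-SIY libraries the same differences were 1.10 log2 units in 8 of 8 libraries for Clec4a1 (exact permutation, adjusted p = 0.026) and 0.69 in 7 of 8 for Clec4a3 (exact permutation, adjusted p = 0.033). No MC38 library with both classes, of 6 to 11 monocyte-like barcodes each, had Clec4a1 higher in macrophage-like barcodes. Mast or basophil-like barcodes of Panc02-SIY also held Clec4a2, at 246.9 CPM untreated and 251.8 CPM irradiated on average. Of 231 untreated and 225 irradiated barcodes of that class, 193 and 170 lay in cluster 5. This cluster raised 3 of 6 mast or basophil markers and also the macrophage markers C1qa and Mertk. The part of macrophage RNA in the Clec4a2 level there was not tested.

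Monocyte-like barcodes carried both sets at intermediate levels. In untreated Panc02-SIY libraries, Clec4a3 measured 571, 292, 375 and 333 CPM and Clec4a1 measured 370, 271, 414 and 229 CPM. Clec4e measured 133, 189, 258 and 193 CPM there, and Clec4n 230, 165.1, 221 and 132 CPM. Clec4b1 was low in these barcodes, at 7.41 to 23.8 CPM untreated and 4.96 to 21.2 CPM irradiated.

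Dendritic-like barcodes held little of most members. Clec12a led, at 68.0 ± 10.5 CPM untreated and 53.5 ± 21.4 CPM irradiated (SD, n = 4 each), and Clec4d was listed at 0 in 7 of the 8 Panc02-SIY libraries. Within the dendritic-like class, DC1-like barcodes of Panc02-SIY held Clec12a at 84.0 ± 12.6 CPM untreated (SD, n = 4) and 110.2 ± 58.1 CPM irradiated (SD, n = 4), with every other member at a group mean under 8 CPM. DC2-like barcodes, with at least 5 barcodes in 3 irradiated libraries, held Clec4a1 at 134.1 ± 44.3 CPM, Clec4b1 at 104.0 ± 79.1 CPM and Clec4a3 at 83.3 ± 16.7 CPM (SD, n = 3 each). A DC2-like sub-cluster of 33 barcodes raised 4 DC2 markers and as many monocyte markers. Another, of 37 barcodes, raised 5 DC2 markers and 2 monocyte markers. The part of monocyte RNA in the DC2-like values was not tested. After radiation in Panc02-SIY, 3 members passed the filter on low counts in DC1-like barcodes (Clec12a, Clec4a1 and Clec4a3) and 2 in barcodes like mature regulatory dendritic cells, mregDC-like (Clec12a and Clec4n), and 0 were called in either by edgeR (0 at an unadjusted p under 0.05), against 0.524% and 0.0669% of all genes. Clec12a had log2 fold changes of 0.31 ± 0.31 SE in DC1-like and -1.95 ± 1.22 SE in mregDC-like barcodes, from 7 UMIs in the latter. DC2-like barcodes reached 5 in 1 untreated library only, so that subset was not tested. A sub-cluster left out of the dendritic-like class, with 23 untreated and 76 irradiated Panc02-SIY barcodes, raised 7 T cell markers and 4 DC2 markers.

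Counting barcodes in place of levels gave the same division in Panc02-SIY, except for Clec12a in untreated tumors. Each barcode was thinned to 1000 UMIs and shallower barcodes were left out, and barcodes were pooled over the libraries of a group. Clec12a was found in 20.9% of 177 monocyte-like and 19.5% of 1466 macrophage-like barcodes of untreated Panc02-SIY. In neutrophil-like barcodes of untreated Panc02-SIY, Clec4n was found in 60.9% and Clec4e in 44.4% of 644 barcodes (77.2% and 63.8% before thinning). In macrophage-like barcodes of untreated Panc02-SIY, Clec4a1 was found in 39.2% of 1466 barcodes (62.1% before thinning), against 9.51% of 810 in untreated MC38 (60.0% before thinning). T cell-like barcodes of untreated Panc02-SIY, which should lack these receptors, held Clec4a1 in 0.81% of 3321 barcodes, and that share is read as background. Their median depth before thinning was 8502 UMIs, against 2556 in the neutrophil-like, 2079 in the Panc02-SIY and 20304 in the MC38 macrophage-like barcodes. At 1000 UMIs, at least 1 member was found in 91.3% of neutrophil-like, 83.8% of macrophage-like, 77.4% of monocyte-like, 16.2% of dendritic-like and 3.16% of T cell-like barcodes of untreated Panc02-SIY, and in 65.1% of macrophage-like barcodes of untreated MC38. The shallower barcodes left out were 571 of 2037 macrophage-like barcodes in untreated Panc02-SIY and 47 of 857 in untreated MC38.

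**Figure D2:**
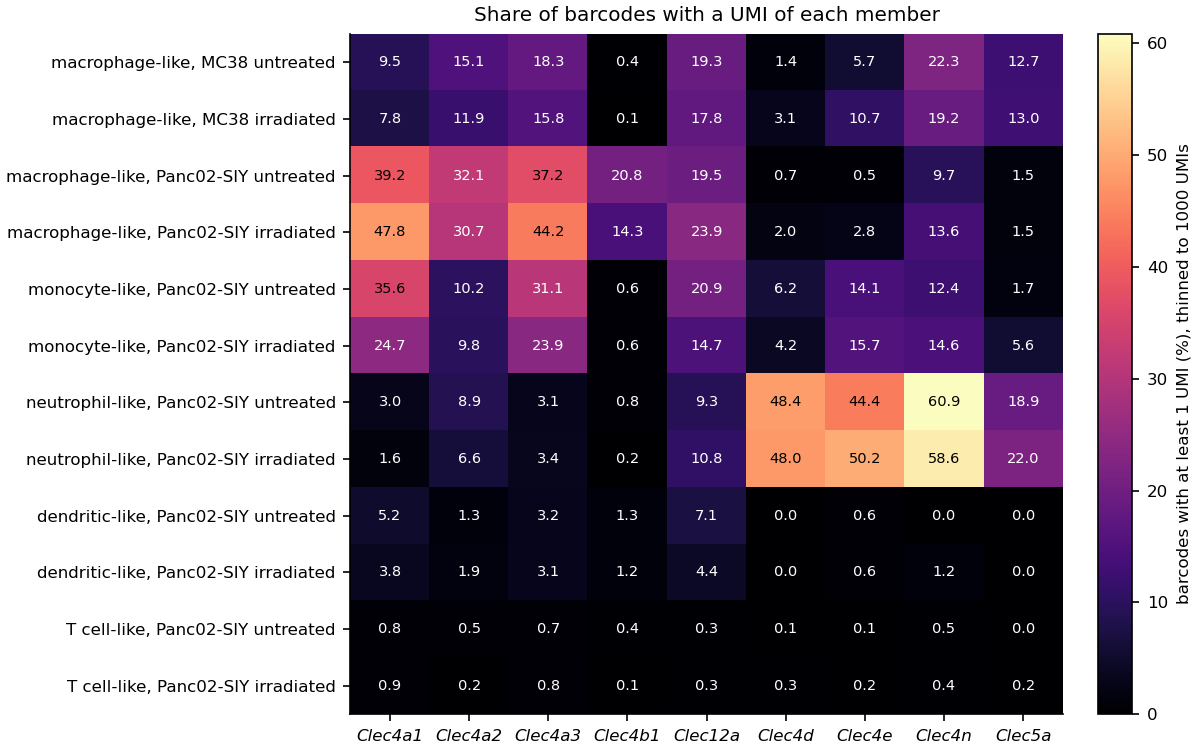
Percent of barcodes with at least 1 UMI of each member after thinning every barcode to 1000 UMIs, by class, tumor line and treatment, pooled over the 4 libraries of a group. Clec4n reaches 60.9% in neutrophil-like barcodes, Clec4a1 47.8% in macrophage-like barcodes of irradiated Panc02-SIY, and the T cell-like rows stay under 1%.

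The second question was whether macrophage-like barcodes of the 2 tumor lines carry different receptors. Macrophage-like barcodes of MC38 held less of the DCIR relatives and DCAR and more MDL-1 than those of Panc02-SIY, before and after radiation, and these differences were larger than the spread between libraries. UMIs were summed per library and tested with edgeR's quasi-likelihood test, and a gene was called at a Benjamini-Hochberg adjusted p under 0.1, over all 12062 genes tested, with a fold change above 1.3. In untreated tumors 6 of 9 members were called, 2 higher and 4 lower in MC38, with a median log2 fold change of 0.04 over the members and 0.01 over all genes. Of all genes, 46.1% were called in this comparison, 23.4% higher and 22.6% lower.

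Clec4a1 measured 92.7, 86.0, 140 and 114 CPM in the untreated MC38 libraries and 579, 584, 685 and 557 CPM in the untreated Panc02-SIY libraries. Each MC38 library was below each Panc02-SIY library, 5.05-fold lower in the fit (log2 fold change -2.34 ± 0.14 SE, edgeR adjusted p = 9.2e-12). Clec4a3 measured 214, 198, 219 and 194 CPM against 490, 477, 619 and 522 CPM, again without overlap (log2 fold change -1.23 ± 0.12 SE, edgeR adjusted p = 2.4e-08). The ITIM receptor gene Clec4a2 measured 224, 156, 218 and 220 CPM against 413, 379, 504 and 454 CPM (log2 fold change -0.97 ± 0.15 SE, edgeR adjusted p = 3.1e-05). The groups did not overlap for Clec4a2 either.

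Clec4b1 showed the widest gap. It measured 8.47, 5.55, 6.22 and 7.72 CPM in untreated MC38, from 140 UMIs in all, and 147, 143, 219 and 290 CPM in untreated Panc02-SIY. The MC38 level was 26.7-fold lower in the fit (log2 fold change -4.74 ± 0.32 SE, edgeR adjusted p = 2.5e-08).

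Clec5a went the other way. It measured 141, 169, 145 and 148 CPM in untreated MC38 and 19.3, 24.9, 21.1 and 10.7 CPM in untreated Panc02-SIY, 9.52-fold higher in MC38 (log2 fold change 3.25 ± 0.30 SE, edgeR adjusted p = 7.5e-07). Clec4e was also called higher in MC38, at 44.3, 54.1, 72.2 and 69.1 CPM against 23.2, 4.60, 1.36 and 6.16 CPM (log2 fold change 3.54 ± 1.02 SE, edgeR adjusted p = 0.013). The Panc02-SIY value of Clec4e rested on 93 UMIs over 4 libraries, and its highest library was replicate 1.

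Clec4d, Clec4n and Clec12a were not called between untreated lines. Clec12a measured 209 to 315 CPM in MC38 and 120 to 329 CPM in Panc02-SIY, with overlapping libraries (log2 fold change 0.04 ± 0.19 SE, edgeR adjusted p = 0.89). Clec4d and Clec4n stood at 1.58 ± 0.83 and 0.96 ± 0.67 SE log2 units (edgeR adjusted p = 0.15 and 0.27). With every called barcode kept and clustered anew, both were called higher in MC38, Clec4d by 2.84 and Clec4n by 1.64 log2 units (edgeR adjusted p = 1.0e-05 and 0.0049). The 6 members called in untreated tumors were called in each of 25 alternatives, that one included. Without untreated Panc02-SIY replicate 1, Clec4d was called too (1.93 log2 units, edgeR adjusted p = 0.061), and at resolution 2 Clec4d and Clec4n were called, at 2.20 and 1.17 log2 units (edgeR adjusted p = 0.0033 and 0.092).

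**Figure D3:**
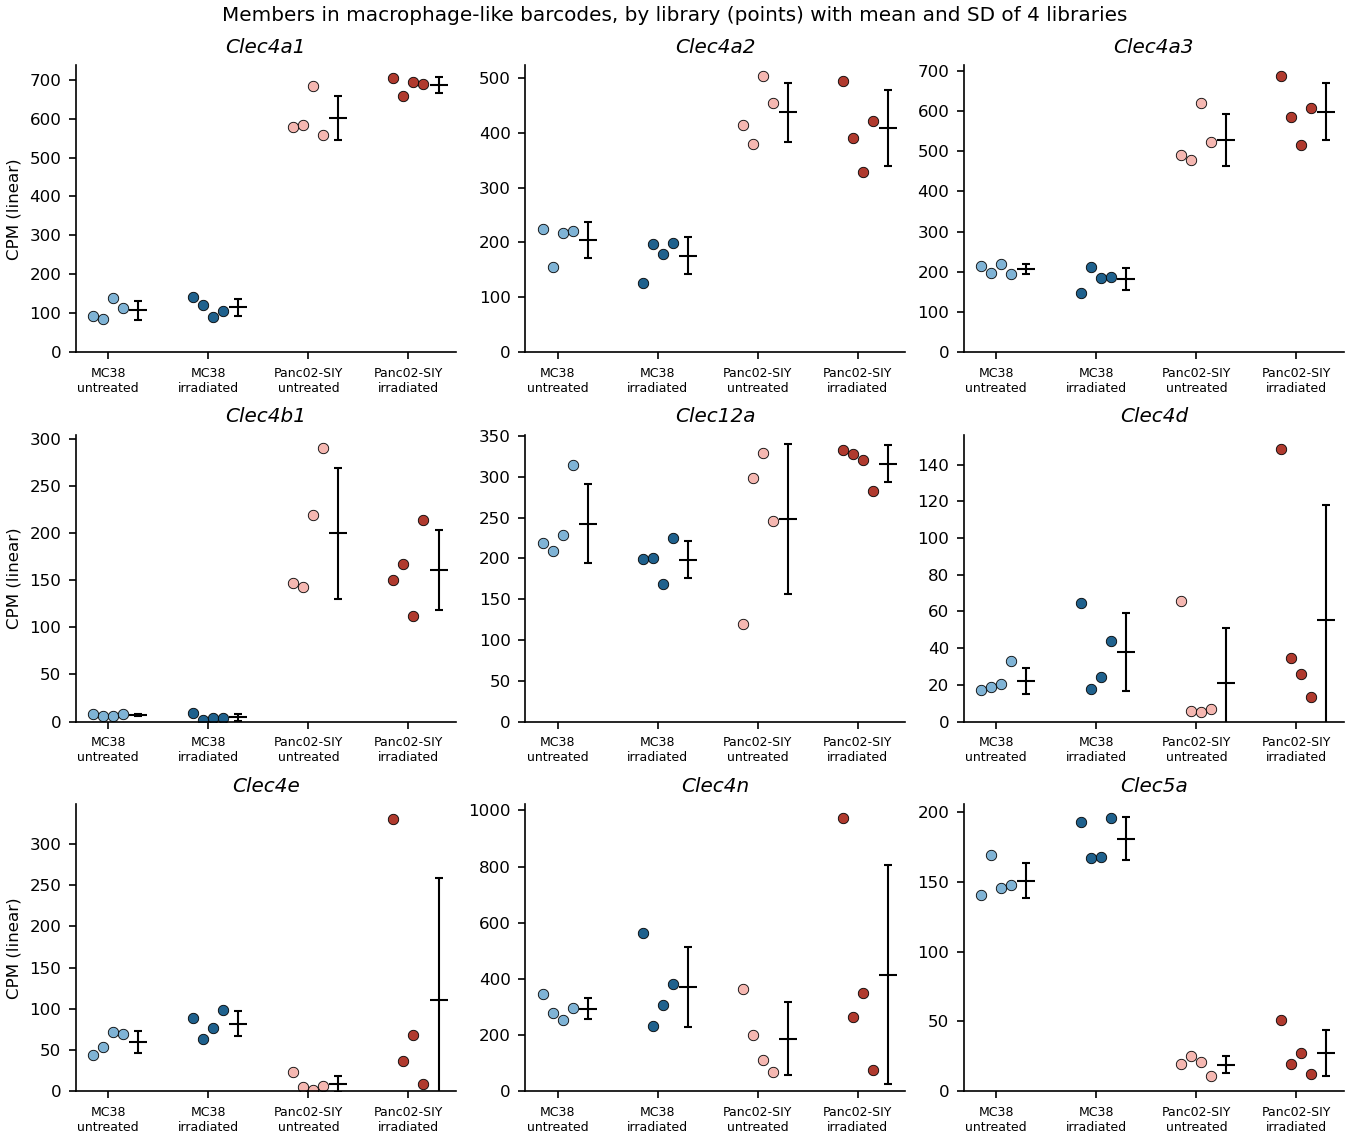
Level of each member in macrophage-like barcodes in CPM on linear axes, 1 point per library, with the mean and SD of the 4 libraries of a group beside the points; axes start at 0 and cut SD bars that would reach below it. MC38 libraries lie below Panc02-SIY libraries for Clec4a1, Clec4a2, Clec4a3 and Clec4b1 and above them for Clec5a, and replicate 1 of irradiated Panc02-SIY stands highest in its group for Clec4d, Clec4e and Clec4n.

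After irradiation the same 5 genes differed between lines. Clec4a1, Clec4a2 and Clec4a3 were lower in MC38, with log2 fold changes of -2.39 ± 0.14, -0.999 ± 0.16 and -1.499 ± 0.12 SE (edgeR adjusted p = 6.8e-12, 2.3e-05 and 1.1e-09). Clec4b1 measured 9.39, 1.58, 3.43 and 3.62 CPM in irradiated MC38 against 151, 167, 112 and 214 CPM in irradiated Panc02-SIY, 38.2-fold lower in the fit (edgeR adjusted p = 4.6e-08). Clec5a measured 193, 167, 168 and 196 CPM against 50.9, 19.4, 27.1 and 12.7 CPM, 9.77-fold higher in MC38 (edgeR adjusted p = 6.4e-07). Clec12a was called lower in irradiated MC38 (199, 201, 169 and 225 CPM against 332, 328, 321 and 283 CPM, log2 fold change -0.46 ± 0.20 SE, edgeR adjusted p = 0.067), and that call was lost in 10 of 25 alternatives, among them leaving out any 1 irradiated library except MC38 replicate 4 (adjusted p = 0.10 to 0.19). Of all genes, 47.5% were called in this comparison, 23.3% higher and 24.3% lower. Clec4d, Clec4e and Clec4n were not called, with log2 fold changes of 0.16, 0.29 and 0.10, but all of them were called higher in MC38 with every called barcode kept, by 2.10, 2.79 and 1.12 log2 units (edgeR adjusted p = 7.7e-05, 0.00019 and 0.031). Without irradiated Panc02-SIY replicate 1, Clec4e was called higher in MC38 by 1.64 log2 units (edgeR adjusted p = 0.030), and at resolution 2 Clec4d and Clec4e were, by 1.94 and 2.95 log2 units (edgeR adjusted p = 0.0050 and 0.00015).

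The macrophage-like class was not made of the same clusters in both lines. In MC38, cluster 0, with Arg1, Apoe and Trem2 among its leading genes, held 56.6% to 70.8% of the macrophage-like barcodes of a library, and most of the rest lay in cluster 6. In Panc02-SIY, most barcodes lay in cluster 2, a shallow cluster led by Ccl8 and complement C1q genes, and in the deep cluster 22, led by C1qc and Cd300e, which held no MC38 barcode. Monocyte markers summed to 1918 to 2992 CPM in the macrophage-like barcodes of untreated MC38 and to 186 to 556 CPM in those of untreated Panc02-SIY, and their part in the differences between lines was not tested. Within cluster 2, which held barcodes of both lines, the untreated differences kept their direction for the 5 genes called in both treatments: -2.45 ± 0.38 SE for Clec4a1, -0.75 ± 0.32 for Clec4a2, -1.90 ± 0.37 for Clec4a3, -3.26 ± 0.64 for Clec4b1 and 2.76 ± 0.49 for Clec5a, each of them called by edgeR, against 17.7% of all 4741 genes tested there. MC38 libraries held only 7 to 33 barcodes of cluster 2. The median barcode of cluster 2 had 0.184 of the median UMIs of its library. In untreated MC38 libraries the cluster held 0.424% to 1.55% of the macrophage-like UMIs, so its MC38 values rest on few molecules. After irradiation 6 of the 7 members tested in cluster 2 were called, the same 5 and Clec12a, against 17.9% of all genes. Within cluster 0 after irradiation, Clec4a1 and Clec4b1 were called lower in MC38 and Clec5a higher (log2 fold changes of -0.74, -2.19 and 1.17), but Clec12a was higher by 1.08 ± 0.33 SE, against its lower level over the whole class, and Clec4d and Clec4e were lower, each by 2.72 log2 units. Clec4a2 and Clec4a3 were not called in cluster 0 (log2 fold changes of 0.26 ± 0.23 and -0.11 ± 0.17 SE), and 22.9% of all genes were. The adaptors Fcer1g, Tyrobp and Hcst were higher in MC38 within cluster 0, by 0.61, 0.71 and 0.67 log2 units. The Panc02-SIY libraries held 7 to 18 barcodes of cluster 0 there.

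**Figure D4:**
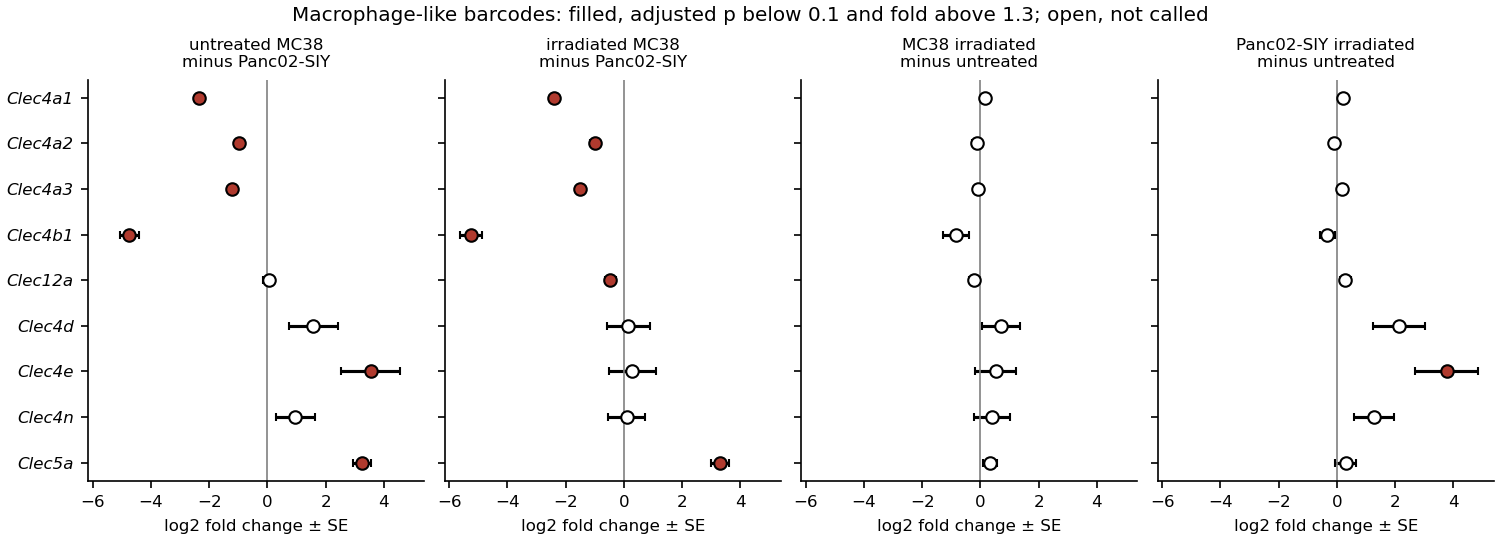
Log2 fold change ± SE of each member in macrophage-like barcodes in 4 comparisons, with filled points for genes called by edgeR (adjusted p below 0.1 and fold change above 1.3). The filled points of both comparisons between tumor lines include Clec4a1, Clec4a2, Clec4a3 and Clec4b1 below 0 and Clec5a above 0, and Clec4e is the only filled point for radiation.

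The third question was what radiation did to the members within each line. In macrophage-like barcodes of MC38 no member was called of 9 tested (0 had an unadjusted p under 0.05 by edgeR), while 11.5% of all genes were called. DESeq2 called 0 of the 9 as well, and fitting the MC38 groups alone called Clec4b1 lower (-0.82) and Clec4e higher (0.53), and clustering at resolution 2 called Clec5a higher (0.38). With every called barcode kept, 0 of the 9 were called, and Clec4e and Clec5a had log2 fold changes of 0.36 ± 0.30 and 0.27 ± 0.17 SE. The median log2 fold change over the members was 0.15, against -0.01 over all genes. Clec4e measured 44.3 to 72.2 CPM untreated and 62.8 to 98.8 CPM irradiated, with overlapping libraries (log2 fold change 0.52 ± 0.70 SE). Within cluster 6, where Clec4e measured 156.2 ± 65.1 CPM untreated and 272.4 ± 17.3 CPM irradiated (SD, n = 4 each), it was called higher after radiation (log2 fold change 0.87 ± 0.21 SE, edgeR adjusted p = 0.013), against 3.7% of 9163 genes tested in that cluster. Within cluster 0 of MC38, 0 of 9 members were called by edgeR (2 at an unadjusted p under 0.05), against 10.7% of all genes.

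In macrophage-like barcodes of Panc02-SIY, Clec4e was the only member called, while 6.53% of all genes were called and 2.97% were called higher. It measured 23.2, 4.60, 1.36 and 6.16 CPM untreated and 330, 36.0, 68.6 and 8.44 CPM irradiated. The groups overlapped, since irradiated replicate 4 was below untreated replicate 1 (log2 fold change 3.77 ± 1.09 SE, edgeR adjusted p = 0.077). The call was lost in 14 of 25 alternatives, among them every called barcode kept (2.15 log2 units, adjusted p = 0.11), with adjusted p from 0.00094 to 0.34. It was also lost without untreated replicate 2, 3 or 4 or irradiated replicate 3 (log2 fold changes of 3.70, 3.62, 4.01 and 3.88, edgeR adjusted p = 0.15, 0.15, 0.27 and 0.16) and with the replicate number as a block. Clec4d averaged 20.9 ± 29.8 CPM untreated and 55.6 ± 62.5 CPM irradiated, and Clec4n 186 ± 130 and 415 ± 390 CPM (SD, n = 4 each). Neither passed the test (edgeR adjusted p = 0.24 and 0.38). Replicate 1 was the highest library for all 3 genes in both groups.

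Most Clec4e molecules of macrophage-like barcodes in each irradiated Panc02-SIY library came from few barcodes. Cluster 0, the main cluster of MC38, held 6, 3, 3 and 4 barcodes of the untreated and 7, 13, 12 and 18 barcodes of the irradiated Panc02-SIY libraries. Those barcodes held 96.0%, 53.8%, 95.2% and 58.1% of the Clec4e UMIs of the irradiated libraries. Of all macrophage-like UMIs of these libraries, they held 27.2%, 9.45%, 8.10% and 2.48%. In the untreated libraries, cluster 0 held 83.3%, 33.3%, 0% and 4.11% of the Clec4e UMIs and 23.5%, 1.39%, 1.61% and 0.217% of all macrophage-like UMIs. These untreated Clec4e shares rest on few molecules, since only 2.26% of the 2037 untreated macrophage-like barcodes held a Clec4e UMI before thinning. In replicate 4, cluster 22 held 91.8% of the Clec4e UMIs untreated and 40.3% irradiated. In cluster 22, which held 80.3% to 88.3% of the macrophage-like UMIs of 3 untreated libraries, Clec4e measured 3.1 ± 3.2 CPM untreated (SD, n = 3) and 6.5 ± 5.0 CPM irradiated (SD, n = 4), and no member was called there by edgeR (0 at an unadjusted p under 0.05), against 1.82% of all genes. In cluster 2, where 7 members passed the filter on low counts, 0 were called after radiation in Panc02-SIY or MC38 and 0 responses differed between lines by edgeR (1, 0 and 0 at an unadjusted p under 0.05), against 2.26%, 0.422% and 0.0633% of all genes. Neutrophil markers summed to 146 to 188 CPM in macrophage-like barcodes of untreated and 197 to 361 CPM of irradiated Panc02-SIY, with Ly6g at 0 in the untreated libraries. The same sum was 34538 to 51701 CPM in neutrophil-like barcodes, and its part in the Clec4e, Clec4d and Clec4n values was not tested.

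**Figure D5:**
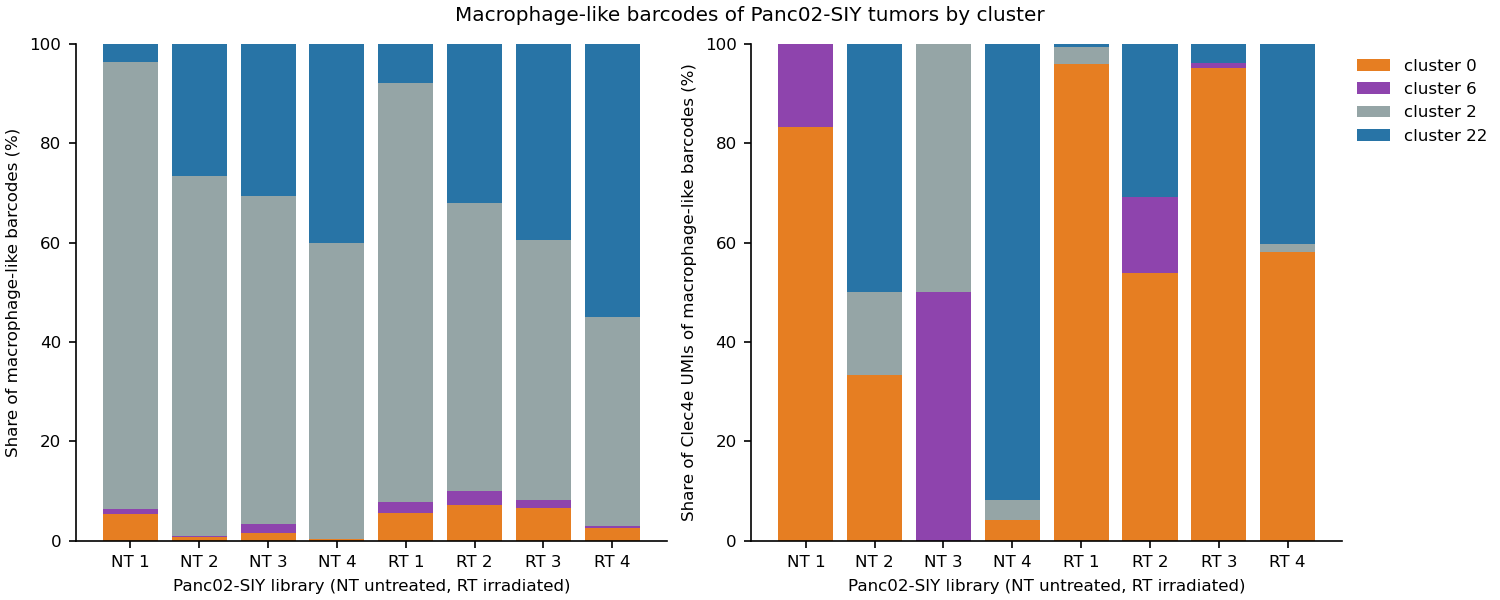
Share in percent of the macrophage-like barcodes (left) and of their Clec4e UMIs (right) that lie in each of 4 clusters, for each Panc02-SIY library, untreated (NT) or irradiated (RT). Cluster 0 holds under 8% of barcodes in each library and 53.8% to 96.0% of Clec4e UMIs in the irradiated libraries. Its barcodes are deep, and it holds 2.48% to 27.2% of all macrophage-like UMIs in the irradiated libraries, which is not drawn.

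In the other classes of Panc02-SIY no member was called after radiation with each barcode kept once. In monocyte-like barcodes 0 of 9 members were called by edgeR, with 2 at an unadjusted p under 0.05 (Clec4d and Clec4a2, at -0.54 and -0.37 log2 units) and 0.161% of all genes called. MDL-1 (Clec5a) measured 29.6, 32.4, 40.1 and 56.3 CPM untreated and 41.9, 61.2, 51.6 and 73.2 CPM irradiated (log2 fold change 0.50 ± 0.27 SE, edgeR adjusted p = 0.66). With every called barcode kept, Clec5a and Clec4e were called higher in these barcodes, by 1.20 and 0.85 log2 units (edgeR adjusted p = 0.00021 and 0.079), where Clec4e had a log2 fold change of -0.05 otherwise. Of 9554 genes tested that way, 507 were called higher and 378 lower. In neutrophil-like barcodes 0 of 9 members were called by edgeR, with 3 at an unadjusted p under 0.05 and 0.0811% of all genes called. Those 3 were Clec4b1, Clec4a1 and Clec4a2, with log2 fold changes of -1.94 ± 0.75, -0.80 ± 0.31 and -0.49 ± 0.20 SE (edgeR adjusted p = 0.48, 0.46 and 0.51), while Clec4e, Clec4d, Clec4n and Clec5a had log2 fold changes of 0.22 ± 0.15, 0.00 ± 0.18, -0.07 ± 0.20 and 0.20 ± 0.17 SE. In dendritic-like barcodes 6 members passed the filter on low counts and 0 were called by edgeR, with 1 at an unadjusted p under 0.05 (Clec4n) and 0 of 9197 genes called. Clec4n measured 3.67, 2.23, 11.9 and 2.44 CPM in untreated and 55.7, 2.17, 28.1 and 22.4 CPM in irradiated dendritic-like barcodes (log2 fold change 2.27 ± 0.74 SE, edgeR adjusted p = 0.67), and without the filter on low counts it was called (2.27 log2 units, edgeR adjusted p = 0.052).

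With every called barcode kept, the lines could also be compared in classes that MC38 held too few barcodes of in the main clustering. In monocyte-like barcodes of untreated tumors Clec5a and Clec12a were then higher in MC38, by 3.53 and 0.88 log2 units, and Clec4b1 stood at -1.80 (edgeR adjusted p = 2.6e-14, 0.00020 and 0.074). Of 9554 genes tested there, 1730 were called higher and 1802 lower. After irradiation Clec5a and Clec12a were higher there by 2.41 and 0.57 log2 units and Clec4a1 stood at -0.93, and the response of Clec5a to radiation was 1.12 log2 units smaller in MC38 (log2 difference -1.12 ± 0.22 SE, edgeR adjusted p = 0.049). Of the same genes, 1958 were called higher and 1962 lower after irradiation, and the response was called higher in MC38 for 1 and lower for 12. In dendritic-like barcodes Clec5a, Clec4n and Clec12a were higher in MC38, by 6.72, 3.11 and 1.95 log2 units untreated and 4.62, 3.42 and 3.29 irradiated. Of 7023 genes tested there, 971 were called higher and 864 lower untreated, and 1293 and 1148 irradiated. The median over members was 1.097 untreated and 2.205 irradiated. A new clustering with each barcode kept once also allowed these contrasts. Its medians were -1.196 and -0.769, with 1 member called higher and 1 lower untreated, and 2 higher and 1 lower irradiated. The values with every called barcode kept include barcodes counted in several MC38 libraries, untreated and irradiated. The MC38 libraries were therefore not independent here, so the SEs and p-values may be too small and the MC38 responses understated.

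The radiation responses of the lines were also compared directly. In macrophage-like barcodes no member's response differed by edgeR (1 had an unadjusted p under 0.05, Clec4e, at -3.25 ± 1.3 SE log2 units for MC38 minus Panc02-SIY, adjusted p = 0.65), and 0.0249% of all genes did.

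Over all CD45+ barcodes of a library, 3 members were called higher after radiation in Panc02-SIY and 0 in MC38 (0 at an unadjusted p under 0.05 by edgeR), against 12.5% and 9.29% of all genes called, with 6.57% called higher in Panc02-SIY. Fewer cells of a type and less RNA per cell cannot be told apart in these sums. Clec5a rose by 1.20 ± 0.19 SE (edgeR adjusted p = 0.0014), Clec4e by 1.33 ± 0.33 SE (edgeR adjusted p = 0.017) and Clec4n by 1.10 ± 0.36 SE (edgeR adjusted p = 0.066) on the log2 scale, and the call of Clec4n was lost in 7 of 25 alternatives, among them leaving out untreated replicate 3 or 4 or irradiated replicate 1 or 3 (adjusted p = 0.15, 0.17, 0.20 and 0.15). Clec5a measured 8.1 to 15.3 CPM untreated and 18.0 to 35.1 CPM irradiated, without overlap. Beside these values, monocyte-like barcodes made up 0.988% to 4.46% of untreated and 5.54% to 9.04% of irradiated Panc02-SIY libraries, and neutrophil-like barcodes 5.61% to 10.2% and 7.93% to 15.2%. The part of these shares in the sums was not tested. No member's response differed between lines in these sums by edgeR (1 had an unadjusted p under 0.05, Clec5a, at -0.90 ± 0.26 SE log2 units, adjusted p = 0.22), and 0.145% of all genes did. DESeq2 called that difference for Clec5a (-0.93 log2 units, adjusted p = 0.086), as did edgeR without irradiated Panc02-SIY replicate 4 (-1.18, adjusted p = 0.044).

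Between untreated lines, 7 members were called over all CD45+ barcodes against 57.8% of all genes (26.7% higher and 31.1% lower). Clec5a, Clec12a, Clec4n, Clec4a2, Clec4a3 and Clec4e were higher in MC38, by 3.71, 2.10, 2.04, 1.26, 1.02 and 0.82 log2 units, and Clec4b1 was lower (log2 fold change -2.45 ± 0.69 SE, edgeR adjusted p = 0.0077). The call of Clec4e was lost in 6 of 25 alternatives, among them leaving out MC38 replicate 3 or 4 or Panc02-SIY replicate 2 or 4 (adjusted p = 0.12, 0.13, 0.11 and 0.15). Clec4a2 and Clec4a3 had opposite directions in all CD45+ barcodes and in macrophage-like barcodes, where MC38 was lower. After irradiation 5 members were called against 54.7% of all genes (27% higher and 27.7% lower), Clec5a, Clec12a, Clec4n and Clec4a2 higher and Clec4b1 lower in MC38. With every called barcode kept the same 7 were called between untreated lines, and Clec4a3 was called in addition after irradiation (0.62 log2 units, edgeR adjusted p = 0.068).

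The adaptors, kinases and target genes of the receptors were read from 47 other listed genes, of which 40 were tested in macrophage-like barcodes. In untreated tumors 12 of the 40 were called higher and 12 lower in MC38, against 23.4% and 22.6% of all genes. Of the adaptors, Fcer1g and Hcst were lower in MC38, by 0.55 ± 0.10 and 1.12 ± 0.16 SE log2 units (edgeR adjusted p = 0.00015 and 3.6e-06), and Tyrobp, which encodes DAP12, was not called (log2 fold change -0.20 ± 0.10 SE). In the kinase and scaffold group 4 of 10 were higher and 3 lower. The scaffold gene Card9 was 1.57 ± 0.19 SE log2 units higher and the kinase gene Syk stood at -1.13 ± 0.13 SE (edgeR adjusted p = 6.6e-07 and 1.3e-07). The paracaspase gene Malt1 was higher by 1.11 log2 units.

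The phosphatases that serve inhibitory receptors, Ptpn6, Ptpn11 and Inpp5d, were lower in untreated MC38 in 3 of 3 cases, with log2 fold changes of -0.72, -0.43 and -0.40. Of 13 response genes tested, 4 were higher and 1 lower in MC38. The chemokine gene Cxcl2 was higher by 2.56 log2 units and the transcription factor gene Egr2 by 1.80, while Il10, which encodes an anti-inflammatory cytokine, stood at -3.68 ± 0.51 SE (edgeR adjusted p = 3.4e-05). Of 8 other lectin receptor genes tested, 2 were higher and 3 lower in MC38, with Olr1, a receptor for oxidized lipoproteins, higher by 5.19 and Clec1b, the podoplanin receptor gene, at -4.39 and Ly75 at -1.70 log2 units. Of the endogenous ligands, Lgals9 (galectin 9) and Vim (vimentin) were higher by 1.74 and 1.45 log2 units.

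After irradiation 11 of the 40 were higher and 8 lower in MC38, and Syk and Card9 were called again, at -0.996 and 0.905 log2 units, as was Fcer1g at -0.40, against its higher level in MC38 within cluster 0. Of all genes, 23.3% were higher and 24.3% lower in that comparison. Within cluster 0, 7 of 41 listed genes were higher and 12 lower, with 1 higher and 4 lower of 14 response genes and 2 higher and 5 lower of 10 in the kinase and scaffold group, where the whole class had 4 higher and 1 lower in each of these groups. The share of all genes called either way within cluster 0 was 22.9%. Within cluster 2, 3 of 25 listed genes were higher and 7 lower, against 17.9% of all genes called either way. Radiation itself raised Il1b, the interleukin 1 beta gene, in macrophage-like barcodes of both lines, by 0.66 ± 0.12 SE log2 units in MC38 and 0.85 ± 0.12 SE in Panc02-SIY (edgeR adjusted p = 0.00094 and 0.00026). In MC38, Clec2d, Syk and Vav3 also rose, by 0.76, 0.46 and 0.63 log2 units, and 4 of the 40 were higher and 0 lower, against 11.5% of all genes called. In Panc02-SIY, the inflammasome gene Nlrp3 and Lgals9 also rose, by 0.81 and 0.65 log2 units, and 3 of the 40 were higher and 0 lower, against 6.53% of all genes called. No listed gene's response differed between lines by edgeR. In monocyte-like, neutrophil-like and dendritic-like barcodes of Panc02-SIY, 0 listed genes were called after radiation by edgeR, against 0.161%, 0.0811% and 0% of all genes. In DC1-like barcodes 1 of 33 was, Il1b (1.16 ± 0.26 SE log2 units, edgeR adjusted p = 0.032), against 0.524% of all genes. Fcer1g, Tyrobp, Syk and Card9 had log2 fold changes of -0.02, -0.18, -0.01 and -0.38 in monocyte-like barcodes and of -0.23, -0.25, 0.16 and 0.25 in neutrophil-like barcodes.

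The genes most like each member over 25 class-by-group means were found by Pearson correlation of log2(CPM + 10) among 10317 genes, as a description, since these means share libraries and depth. Clec4a1 and Clec4a3 were each other's closest gene (r = 0.970). Clec4d was closest to Trem3 (r = 0.971) and to the granulocyte growth factor receptor gene Csf3r, and Clec4e to Cd300lb (r = 0.964), with Il1rn and Csf3r next. Clec4n was closest to Sirpb1b and Il1rn, and Clec5a to Cd14 (r = 0.937), C5ar1 and Gpr84. Clec4b1 was closest to H2-M2 (r = 0.951) and had 0 members among its 20 most alike genes, as did Clec12a, whose closest genes were Slc31a2, Lrrc25 and Csf2ra. Clec4a2 was closest to Nlrp1b, Sirpa and Lair1. Among pairs of members, the correlation ran from 0.970 for Clec4a1 with Clec4a3, through 0.940 for Clec4d with Clec4e, to 0.098 for Clec4b1 with Clec5a.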

How the data were processed

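Each library was made with a 10x Genomics 3' kit (v3.0) from live CD45+ tumor cells. Per the labels, the authors used bcl2fastq 2.20.0 and Cell Ranger 3.1.0 with the mm10 genome. The deposited files hold raw UMI counts per gene and cell barcode, with no normalization. A deposited matrix pooling all libraries held fewer UMIs than their sum and was not used. The members and gene lists were chosen with earlier results of these data known. All members and, at most 3 per list and comparison, the listed genes with the largest called changes are named.

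Each barcode was kept only in the library of its tumor line with the most UMIs. Barcodes were clustered with scanpy 1.11.5 (2000 variable genes without members or listed genes, 30 principal components, Leiden resolution 1) into 27 clusters, 4 of them unnamed. A cluster was named for the class with the most markers raised, at least 3, and that rule was settled with the data in view. Sub-clusters of the dendritic clusters that raised most markers of another class were left unnamed. Doublets were kept, since Scrublet called only 0.337% of barcodes, and removing the highest-scoring 5% was an alternative. Counts were summed per library and class (at least 5 barcodes, 3 libraries a group), filtered with filterByExpr (minimum count 3, total 15) and tested with edgeR 4.0.16 (R 4.3.3, TMM, quasi-likelihood, all groups in 1 fit). The fit was tested on simulated data. CPM is relative to the UMIs of the class in a library. The threshold of 0.1 for class order was set later. Fits within single macrophage-like clusters were added after seeing the data. Alternatives changed the barcode rule, clustering, scaling, filters, thresholds, tool (DESeq2 1.42.0) and libraries. Neighbour classes were compared with scipy 1.17.1.

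The sources differ on the number of animals per group, so p-values measure the spread between libraries, which may be partly technical. In the main clustering, with each barcode kept once, MC38 contrasts in monocyte-like, neutrophil-like and dendritic-like barcodes and in the dendritic subsets, and any contrast in DC2-like barcodes, could not be tested. Some could with every called barcode kept, and those in dendritic-like barcodes also under another clustering. Shares of barcodes carry counting error beside the spread between libraries that SD and SE measure.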

Additional observations from a re-analysis of the deposited data

Results flagged for a closer look

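A library was set apart where its gap to the nearest other library was a larger share of the range of its group of 4 than Dixon's critical value allows. Chance alone does this in about 1 in 20 groups, and 9 of 153 groups of members, classes and treatments did so. Replicate 1 of Panc02-SIY made up 4 of the 9. Clec4d in macrophage-like barcodes was 65.7 CPM in untreated replicate 1, against 5.44 to 6.92 CPM in the other 3 libraries. In irradiated replicate 1 it was 148 CPM, against 13.5 to 34.7 CPM. Cluster 0 held 100% of the Clec4d UMIs of macrophage-like barcodes in untreated replicate 1, in 6 barcodes, and 95.5% in irradiated replicate 1, in 7 barcodes. Clec4d in neutrophil-like barcodes was 1455 CPM in untreated replicate 1, against 734 to 852 CPM, and Clec4a3 there was 10.2 CPM, against 48.9 to 56.1 CPM. Clec4a2 over all CD45+ barcodes was 141 CPM in irradiated Panc02-SIY replicate 4, against 68.7 to 73.2 CPM. Clec4a2 in macrophage-like barcodes was 156 CPM in untreated MC38 replicate 2, against 218 to 224 CPM. Clec4n in dendritic-like barcodes was 11.9 CPM in untreated Panc02-SIY replicate 3, against 2.23 to 3.67 CPM. In DC1-like barcodes of irradiated Panc02-SIY, Clec12a was 196.6 CPM in replicate 2, from 9 barcodes, against 73.4 to 91.5 CPM, and Clec4n was 6.48 CPM in replicate 4, from 4 UMIs, against 0 in the other 3 libraries. No explanation of these values was tested.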

How the results depend on the processing

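Of the medians, counts of called members and class orders recomputed under alternatives, 1138 were counted as unchanged, 35 moved and 8 newly passed the threshold. A median was counted as unchanged if it moved by less than the SD of library medians, even where its sign changed. Of the members' own fold changes, 38 lost their call, 28 gained one, 1 reversed with a call in either fit, and 2999 did none of these. The last count includes fold changes that changed sign without a call in either fit. In macrophage-like barcodes, 2 members were called higher between untreated lines but 4 with every called barcode and at resolution 2, and 1 between irradiated lines but 4 and 3 under those settings and 2 without irradiated Panc02-SIY replicate 1. Radiation raised 1 member there in Panc02-SIY but 0 with every called barcode, duplicated barcodes without a clear main library left out, no filter, an adjusted p below 0.05, only the groups compared, the replicate block, doublets removed, resolution 2, 10 principal components, shallow clusters left out, or without untreated replicate 2, 3 or 4 or irradiated replicate 3. In MC38 it raised 0, but 1 with only the groups compared and at resolution 2, and lowered 0, but 1 with only the groups compared. Over all CD45+ barcodes 1 member was lower in irradiated MC38, but 2 with library size alone or without irradiated Panc02-SIY replicate 4, and 0 responses were lower, but 1 with DESeq2 or without that library. After radiation, 2 members were higher in monocyte-like barcodes with every called barcode and 1 in dendritic-like barcodes without the filter, against 0 otherwise. For radiation in either line, 0 members were called in DC1-like and mregDC-like barcodes under any alternative that tested one. With every called barcode kept, 1 of 1 member tested in DC1-like barcodes was called higher in MC38 untreated, against 131 of 1677 genes, and 0 irradiated. In mregDC-like barcodes 2 of 2 were called higher in MC38 untreated, against 164 of 5096 genes, and 2 of 2 irradiated, against 231. The MC38 libraries were not independent there. Leaving out 1 library moved the median log2 fold change of the members over all CD45+ barcodes between 0.23 and 0.74 for radiation in Panc02-SIY, between 0.97 and 1.33 for untreated MC38 against Panc02-SIY and between -0.76 and -0.43 for the difference of responses, and in macrophage-like barcodes it moved the last between -0.56 and -0.18. With library size alone the median for irradiated MC38 against Panc02-SIY over all CD45+ barcodes was 0.20, where the median of all genes was -0.39 in place of -0.03. With every called barcode kept, the median for radiation in monocyte-like barcodes of Panc02-SIY was 0.26 and Clec4e there turned from -0.05 to 0.85. The lead of macrophage-like over monocyte-like barcodes was resolved for Clec4a1 at 0.96 with every called barcode, 0.65 with 10 principal components and 1.10 in Panc02-SIY alone, and for Clec4a3 at 0.73, 0.47 and 0.69 under the same settings, 0.42 with a cell filter and 0.47 at resolution 2. The Panc02-SIY restriction and the fits without shallow clusters were added after seeing the data. The cause of these changes was not tested.

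Replicate numbers were not used to pair the libraries in the main fits. For each library, the deviation of each gene's log2 CPM from its group mean was taken. Between same-numbered untreated and irradiated libraries, these deviations correlated over genes at -0.0039 to 0.035 in MC38 and 0.0079 to 0.43 in Panc02-SIY in macrophage-like barcodes. In all CD45+ barcodes they correlated at -0.034 to 0.087 and -0.18 to 0.74, so not every pair passed 0.1. Of the macrophage-like libraries, 0 of 8 of MC38 and 5 of 8 of Panc02-SIY correlated best with their own number, and of the all CD45+ libraries 3 of 8 and 6 of 8. These values do not settle whether the Panc02-SIY libraries were paired by number. With the replicate block the median in macrophage-like barcodes was 0.16 for radiation in MC38 and 0.29 in Panc02-SIY, where the call of Clec4e was lost, and -0.52 for the difference of responses. Depth limits Clec4b1 in MC38, with 53 UMIs over the 4 irradiated libraries, and Clec4e in untreated Panc02-SIY macrophage-like barcodes.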
